A study of Mus musculus with 6 samples.

Results

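To follow the zinc-finger factors that carry a BTB, SCAN or BED domain through neuronal depolarization, the protein-coding mouse genes whose symbol is Zbtb, Zkscan, Zscan or Zbed followed by a digit were taken from the gene-level RNA-seq tables of cultured cortical neurons. This gave 72 of the 43432 genes listed, namely 41 Zbtb, 11 Zkscan, 16 Zscan and 4 Zbed genes. The choice rested on the name and the annotation (GENCODE M21, build GRCm38, which is mm10). The wild-type C57BL/6 neurons were taken from E16.5 cortex with the sexes pooled, and were grown for 7 days in vitro. In every group they had been silenced overnight from day 6 with 1 μM tetrodotoxin, which blocks sodium channels, and 100 μM DL-AP5, which blocks NMDA receptors. KCl at 55 mM was then applied for 2 h or 6 h, or not at all (0 h), and 2 libraries of poly(A) RNA were sequenced per time point. The 0 h group is thus a silenced state and not a spontaneously active one, and bath KCl depolarizes every cell in the dish. The study calls the 2 libraries of a group biological replicates, without saying whether they came from separate dissections, and the p-values measure the spread between these libraries.

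These genes encode DNA-binding proteins in which a domain for protein contacts sits next to the fingers. The BTB domain of the Zbtb family pairs the protein with itself or with relatives, and many members recruit corepressors such as NCOR1 and BCOR or the ubiquitin ligase scaffold CUL3. The SCAN domain, found in Zscan and Zkscan genes, also mediates dimer formation, and a Zkscan gene adds a KRAB box, the module by which zinc-finger repressors bind TRIM28. Zbed genes carry instead the BED finger, which descends from DNA transposases.

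In the 65 members with more than 3 counts in some library, a search of the longest coding sequence for the C2H2 finger pattern found a median of 5 fingers (range 0 to 14), with a median of 4 in Zbtb, 7 in Zkscan and 7 in Zscan. The pattern was absent from the 4 Zbed genes and from Zbtb8os. Zbtb8os lies on the strand opposite Zbtb8a and encodes archease, a cofactor of tRNA ligation and no zinc-finger protein. It satisfies the naming rule and is counted, and leaving it out changed no count of calls in the main fit. It is among the calls gained under library totals, with no fold filter and under the length offset. The rule left out Zscan30 and 3 Zbed4 pseudogenes, which are annotated as pseudogenes, and the antisense gene Zbtb11os1.

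The libraries held 25959298 to 28573067 expected counts each. The depolarization markers Fos, Npas4 and Bdnf were higher at 2 h than at 0 h by 7.71, 7.64 and 4.03 on the log2 scale. Summed TPM of 8 neuronal markers lay between 3117 and 3155 at 0 h, then 2406 and 2452 at 2 h and, at 6 h, 2545 and 2693. Tubb3 went from a mean of 1659 TPM to 911.5 and then 730.1, while Gad1 went from 157.6 to 216.0 and 370.5 and Gad2 from 35.0 to 41.6 and 78.9, and the median log2 fold change of the list was 0.17 at both times. The 5 astrocyte markers summed to between 430.1 and 470.8 TPM at 0 h, 431.0 and 437.0 after 2 h and 359.9 and 369.4 after 6 h, and the 5 markers of the oligodendrocyte lineage to between 74.8 and 108.0 in any library. The 3 markers of dividing cells summed to between 120.0 and 127.6 TPM at 0 h, then 108.7 and 124.2 at 2 h and, at 6 h, 83.0 and 93.2, while the 4 microglial markers stayed at or under 4.31 and the 2 endothelial markers at or under 1.03. Transcripts of non-neuronal markers were therefore present in the RNA. By immunostaining of such cultures, the study found Tuj1 dominant and GFAP minimal, and took neuronal purity to be high. Whether a lower level came from fewer cells of a type or less RNA per cell cannot be told apart here, and the part of these markers in the results was not tested.

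The 2 libraries at 2 h stood apart from each other by base composition. In the 61 members whose normalized counts averaged 50 or more, the log2 ratio of replicate 1 to replicate 2 had an SD of 0.456 at 2 h, against 0.162 at 0 h and 0.150 at 6 h. At 2 h this ratio fell with the GC content of the longest transcript (Spearman's rho −0.78 across 61 genes of 1 pair of libraries), while rho was −0.62 at 0 h and −0.065 at 6 h. The same relation held over 12291 genes (rho −0.735 at 2 h). The members with low GC content therefore had a wide spread at 2 h. Zbtb41 (36.9% GC), for example, had 1948 and 782 normalized counts there.

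**Figure D1:**
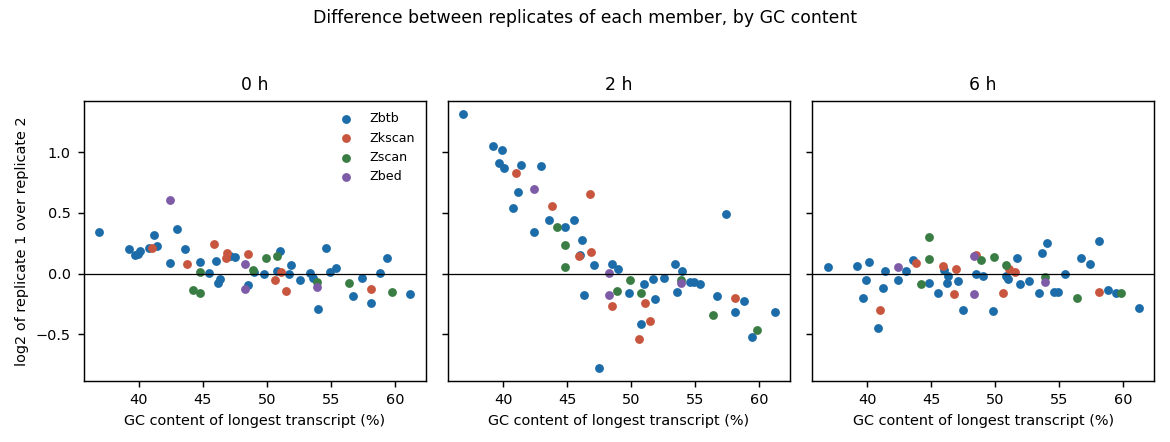
Log2 ratio of the normalized counts in replicate 1 to those in replicate 2 (vertical axis) against GC content of the longest transcript in percent (horizontal axis), at each time point, for the 61 members whose normalized counts averaged 50 or more, coloured by subfamily. At 2 h the points slope downwards (rho −0.78) and span more of the vertical axis than at 0 h or 6 h, with Zbtb41 at the upper left.

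Of the 72 members, 65 entered every test and 7 were at or near 0. Zscan4b, Zscan4c, Zscan4d, Zscan4e, Zscan4f and Zscan5b had no count in any library, and Zscan10, a factor of pluripotent cells, had at most 2. The Zscan4 genes are known for expression in the early embryo, and are near-identical copies between which reads are hard to assign. The 3 Zbtb members with the lowest means above that floor were Zbtb32, Zbtb42 and Zbtb7b. Levels across genes, as TPM, which takes account of transcript length, had a median of 8.71 TPM at 0 h and ran from 0.060 for Zbtb42 to 352.1 for Zbtb18. The subfamily medians were close, at 8.56 TPM for Zbtb, 9.5 for Zkscan, 11.2 for Zbed and 10.2 for the 9 Zscan genes above the floor.

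To assess how these factors responded, a gene was called where DESeq2's Wald test gave an adjusted p of at most 0.05 and the change was over 2-fold in either direction. After 2 h of KCl, 25 of 65 members (38.5%) fell and 1 (1.54%) rose, against 5.94% and 3.62% of all 16840 genes tested. The median log2 fold change of the members was −0.73, that of all genes 0.015, and 54 members had an estimate below 0. Zfp genes, the other large group of zinc-finger genes, had 172 of 374 (46.0%) lower, 5 higher and a median of −0.93. No test was made between the members and the Zfp genes.

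At 6 h, 10 of 65 members (15.4%) were lower than at 0 h and 3 (4.62%) were higher, where 10.2% and 9.1% of all 17277 genes were. The median was −0.04, and 31 estimates lay above 0 and 34 below. The share called lower was thus nearer to that of all genes than at 2 h, and the share called higher stayed under it. Zfp genes had 63 of 374 (16.8%) lower and 16 (4.28%) higher.

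The direct comparison of 6 h with 2 h gave 24 members (36.9%) higher at 6 h and 1 (1.54%) lower, where 10.1% and 8.02% of all 16404 genes were called. The median log2 difference was 0.76 for the members and −0.005 for all genes, and Zfp genes had 151 of 370 (40.8%) higher and 12 lower. The 3 comparisons share libraries, so a member with high values in the 2 h libraries affects 2 of them. Expressed as the share of its 0 h mean, the median member stood at 60.2% at 2 h and 97.0% at 6 h.

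**Figure D2:**
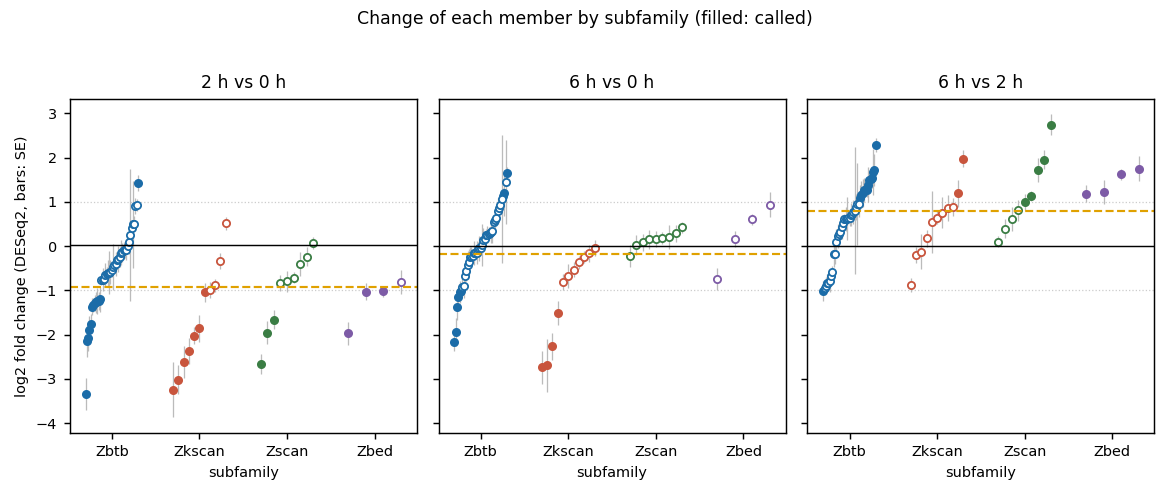
Log2 fold change of each tested member (vertical axis, DESeq2 estimate with its standard error) by subfamily for the 3 comparisons, with filled points called and open points not called; the black line is the median of all genes, the dashed line that of Zfp genes and the dotted lines a 2-fold change. At 2 h most points lie below the black line, at 6 h against 0 h the Zkscan points do, and at 6 h against 2 h the 4 Zbed points and 24 members in all are called higher.

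The subfamilies differed in how far their median member was from its starting level. At 2 h the median log2 change was −0.54 in Zbtb, −1.86 in Zkscan, −0.79 in Zscan and −1.03 in Zbed. At 6 h it was −0.03, −0.67, 0.17 and 0.38 in the same order. Put as a share of the 0 h mean, the median Zkscan gene was at 27.6% at 2 h and 62.9% at 6 h, whereas the median Zscan gene was at 57.8% and then 112.0%, the median Zbed gene at 49.0% and 132.0%, and the median Zbtb gene at 68.7% and 97.6%. Scaling by library totals turned the 6 h median of Zscan to −0.08, and the GC correction turned that of Zbtb to 0.02. The Zkscan median at 6 h was below 0 under each scaling tried. With 4 to 41 genes in a subfamily and neighbouring genes among them, these medians are given as a description.

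**Figure D3:**
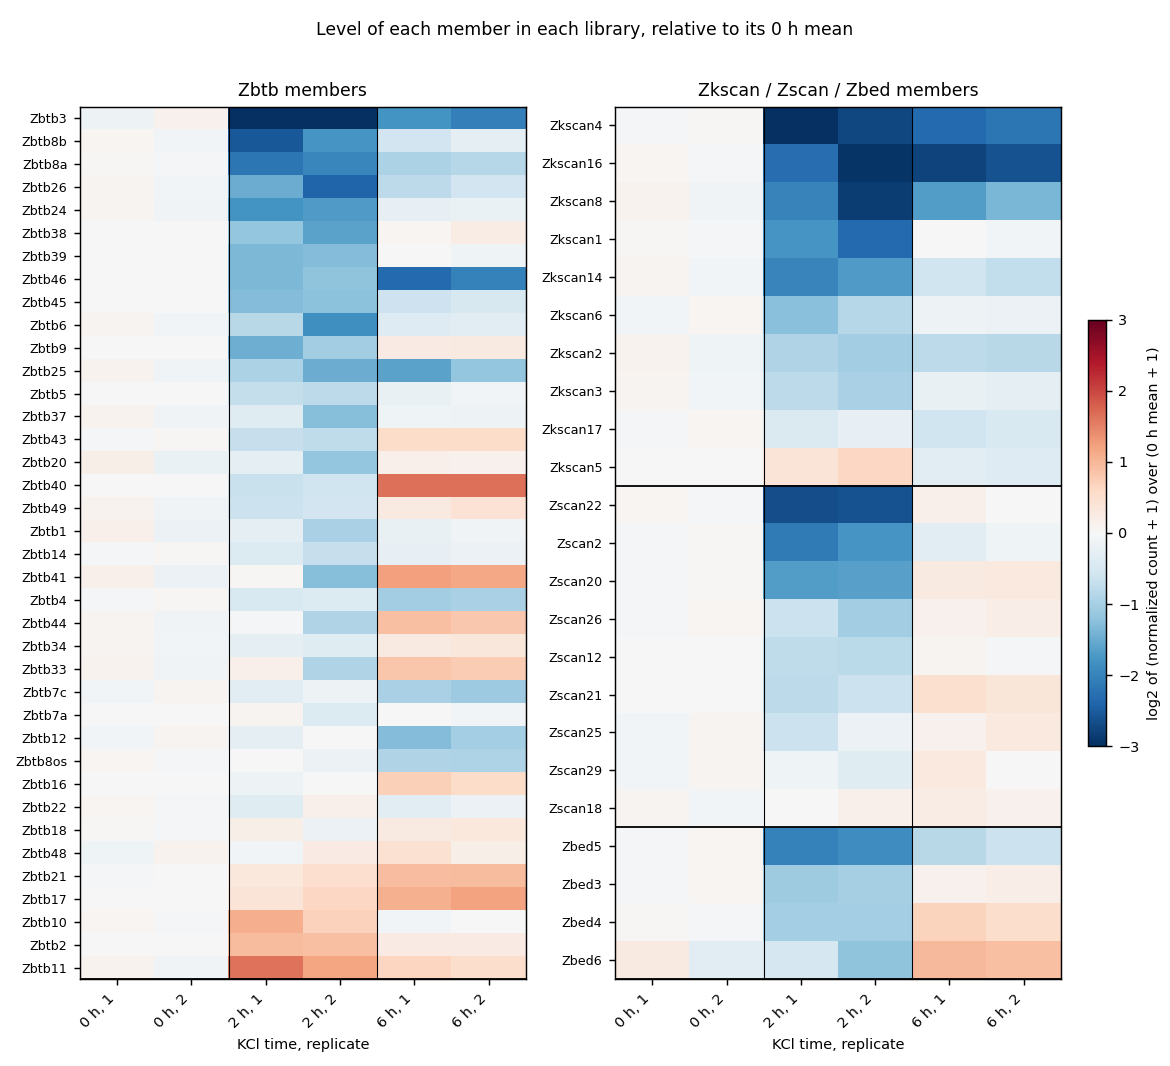
Level of the 61 members whose normalized counts averaged 50 or more in each of the 6 libraries (columns, with time in KCl and replicate), as log2 of the normalized count plus 1 over the 0 h mean plus 1, ordered within each subfamily by the change at 2 h; blue is below the 0 h mean and red above. The 2 h columns are mostly blue, and in the 6 h columns Zkscan4, Zkscan16, Zkscan8, Zbtb3, Zbtb46 and Zbtb25 are still blue.

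Among the Zbtb genes, 12 of 41 (29.3%) fell at 2 h and Zbtb11 (2.44%) rose, beside 5.94% and 3.62% of all genes. The largest fall was that of Zbtb3 (ENSMUSG00000071661, chr19:8802555-8804846, plus strand), which had 180.2 and 221 normalized counts at 0 h, 20.0 and 19.6 after 2 h and 56.7 and 47.3 after 6 h. Both 2 h libraries were low, at 9.88% of the 0 h mean, and the 3 time points did not overlap. The log2 fold change was −3.34 ± 0.37 (SE, n = 2 per group, DESeq2 adjusted p = 4.73e-18) at 2 h and −1.95 ± 0.32 (DESeq2 adjusted p = 9e-09) at 6 h.

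Zbtb24, a gene whose loss in people causes immunodeficiency with unstable centromeres, had 325 and 285 normalized counts at 0 h, then 87.9 and 93.0 at 2 h and, at 6 h, 258 and 266. It fell by 1.75 on the log2 scale at 2 h (DESeq2 adjusted p = 3.42e-14), and at 6 h its log2 difference from 0 h was −0.22 (DESeq2 adjusted p = 0.391). Zbtb39 had 568 and 569 normalized counts at 0 h, 223 and 229.5 after 2 h and 572 and 523 after 6 h. In both genes the 2 h libraries were far below the others and the 6 h libraries lay near those of 0 h. Zbtb38, one of the methyl-CpG binding members, had 739 and 737 normalized counts at 0 h, then 329 and 241 at 2 h and, at 6 h, 775 and 864.

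Zbtb9, with 423.5 and 417 normalized counts at 0 h, 152 and 203 after 2 h and 499 and 507 after 6 h, also fell at 2 h. Zbtb45, Zbtb6 and Zbtb26 fell as well, by 1.27, 1.25 and 1.89 on the log2 scale. Zbtb6 and Zbtb26 overlap on the same strand and share reads that RSEM split between them in 5 of the 6 libraries, so their values are not independent of each other. Both have low GC content (39.9% and 39.7%), and the 2 h call of Zbtb6 was lost when 2 h replicate 2 was left out. Zbtb8a and Zbtb8b, which lie side by side, fell by 2.08 and 2.14, while Zbtb8os, which overlaps exons of Zbtb8a on the other strand, had a log2 difference of −0.09 (DESeq2 adjusted p = 0.815).

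A different course was taken by Zbtb46, known from classical dendritic cells and endothelium (chr2:181387762-181459426, minus strand). It had 677 and 680.1 normalized counts at 0 h, then 265 and 295 at 2 h and, at 6 h, 135 and 167. The level was lower at each later time, with no overlap between time points, and the log2 fold change from 0 h was −1.28 ± 0.18 at 2 h (DESeq2 adjusted p = 4.01e-11) and −2.17 ± 0.19 at 6 h (DESeq2 adjusted p = 2.06e-28). Zbtb25 was also lower at both times, at 43.4% of its 0 h mean at 2 h and 38.6% at 6 h. Its 2 h call was lost when 0 h replicate 1 or 2 h replicate 2 was left out.

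A further set was lower at 6 h than at 0 h without a call at 2 h. It comprised Zbtb12, with 343 and 385 normalized counts at 0 h, 296 and 367 after 2 h and 148 and 180 after 6 h, Zbtb4, a methyl-CpG binding relative of Kaiso, and Zbtb7c. Their log2 fold changes at 6 h were −1.15, −1.003 and −1.03, at or just past the 2-fold line for Zbtb4 and Zbtb7c. Zbtb12 was also the one member called lower at 6 h than at 2 h (log2 difference −1.02, DESeq2 adjusted p = 2.69e-05). The calls of Zbtb4 and Zbtb7c at 6 h were lost under the GC correction and each in 2 of the fits that left out 1 library, and the GC correction also removed that of Zbtb12 at 6 h against 2 h.

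Zbtb11 (ENSMUSG00000022601, chr16:55973883-56008913, plus strand) was the one member called higher at 2 h. It had 1151 and 999 normalized counts at 0 h, then 3318 and 2448 at 2 h and, at 6 h, 1682 and 1555. The time points did not overlap, the 2 h libraries were the highest, and the log2 fold change was 1.42 ± 0.18 at 2 h (DESeq2 adjusted p = 2.61e-13) and 0.59 at 6 h. Reads from Pcnp, which overlaps it on the opposite strand, could not be told apart from its own unless the counting used strand. The same limit applied to other members, among them Zbtb12 (with C2), Zbtb17 (Spen), Zbtb33 (Tmem255a) and Zbtb39 (Gpr182). Exons of 14 members overlap those of another expressed gene on either strand. Below the 2-fold line, 5 members had positive estimates with an adjusted p of at most 0.05 at 2 h, namely Zbtb2 (0.93), Zbtb10 (0.90), Zkscan5 (0.52), Zbtb17 (0.51) and Zbtb21 (0.41). With no fold rule, 6 of 65 members and 2073 of 16840 genes were higher, and 1 and 609 of these were past the 2-fold line. The share of members was thus not above that of all genes.

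Zbtb10 had 745 and 697 normalized counts at 0 h, 1529 and 1168 after 2 h and 686 and 722 after 6 h, so that its 6 h libraries overlapped those of 0 h. Zbtb2 was likewise highest at 2 h, but with its 6 h libraries above those of 0 h, at 348 and 344 at 0 h, then 668 and 649 at 2 h and, at 6 h, 408 and 413. Its adjusted p at 2 h was 3.78e-09 by DESeq2. Both were under the fold required for a call, and Zbtb10 passed it when 2 h replicate 2 was left out.

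Zbtb40 (ENSMUSG00000060862, chr4:136979732-137048801, minus strand) crossed its starting level. It had 340.0 and 329.5 normalized counts at 0 h, 209 and 221 after 2 h and 1050 and 1053 after 6 h. The 6 h libraries were at 314% of the 0 h mean, and the log2 fold change was −0.64 ± 0.16 at 2 h (DESeq2 adjusted p = 0.000365), 1.65 ± 0.14 at 6 h (DESeq2 adjusted p = 7.94e-29) and 2.29 between 2 h and 6 h. Zbtb17, which encodes Miz-1, a partner of MYC, had 278 and 276 normalized counts at 0 h, then 364 and 425 at 2 h and, at 6 h, 583 and 641. It was the second of the 3 members called higher at 6 h, with a log2 fold change of 1.14 ± 0.17 (DESeq2 adjusted p = 2.1e-10). Its call was lost when the test was made against a 2-fold change and under library totals, where the log2 fold change was 0.90. The third, Zbtb41, had an adjusted p of 0.0477 by DESeq2 and lost its call under the GC correction and in 4 of the 6 fits that left out 1 library.

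Zbtb33 (Kaiso, a methyl-CpG binding repressor), Zbtb43 and Zbtb44 had higher levels at 6 h compared with 2 h, by 1.09, 1.27 and 1.26 on the log2 scale, with no call against 0 h. The low-GC genes among them, Zbtb33 with 1646 and 795 and Zbtb44 with 676 and 370.1 normalized counts at 2 h, differed about 2-fold between the 2 h libraries. The GC correction removed both of those calls and kept that of Zbtb43, whose 2 h libraries had 726 and 687.

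The most abundant member, Zbtb18 (chr1:177442351-177450764, plus strand), a repressor needed for the development of cortical projection neurons, reached 352 ± 33 TPM (SD, n = 2) at 0 h. It had 14213 and 13373 normalized counts at 0 h, 15558 and 12268 after 2 h and 16499 and 17104 after 6 h. The 0 h values lay inside the range of the 2 h values, and neither time passed the test (log2 0.01 with a 95% interval from −0.27 to 0.29 at 2 h and 0.28 at 6 h, DESeq2 adjusted p = 0.0957). A 2-fold change of this gene at 2 h therefore lay outside the interval. Zbtb20, a regulator of hippocampal and cortical identity, had 3225 and 2501 normalized counts at 0 h, then 2373 and 1280 at 2 h and, at 6 h, 3159 and 3108, with a log2 difference at 2 h of −0.65 (DESeq2 adjusted p = 0.0611) that did not pass the test. That value was −1.17, and called, without 2 h replicate 1 and −0.29 without 2 h replicate 2, and the length offset gave −0.26. Zbtb16 (PLZF) stood at 94.2% and 155.0% of its 0 h mean, with a log2 difference of 0.63 at 6 h, under the fold for a call. Zbtb7a (LRF) and Zbtb7b (ThPOK, the CD4 lineage factor of T cells) had log2 differences between −0.60 and 0.62 with adjusted p over 0.05 in every comparison.

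**Figure D4:**
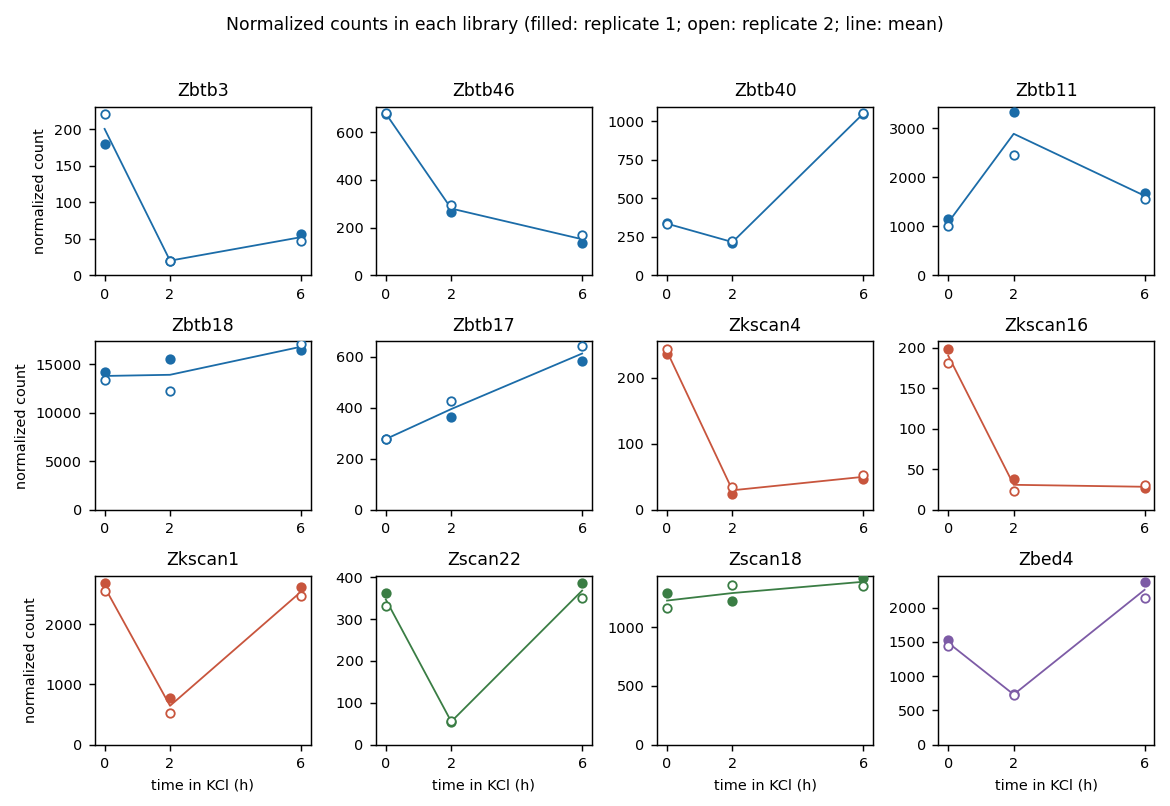
Normalized counts (vertical axis, from 0) against time in 55 mM KCl in hours (horizontal axis) for 12 members, with filled points for replicate 1, open points for replicate 2 and a line through the means. Zbtb3, Zkscan4 and Zkscan16 stay low at 6 h, Zkscan1 and Zscan22 return close to their 0 h counts, Zbtb40 ends at 1050 and 1053, and Zbtb46 falls at each step.

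Of the 11 Zkscan genes, 7 fell at 2 h and none rose, beside 5.94% and 3.62% of all genes. At 6 h, 4 were lower than at 0 h, beside 10.2% of all genes, with an estimate below 0 for each of the 11. Zkscan4 (ENSMUSG00000054931, chr13:21478907-21485507, plus strand) had 235 and 244 normalized counts at 0 h, 24.0 and 35.1 after 2 h and 47.1 and 52.7 after 6 h. Its log2 fold change was −3.02 ± 0.33 at 2 h (DESeq2 adjusted p = 9.78e-19) and −2.26 ± 0.30 at 6 h (DESeq2 adjusted p = 1.14e-12), and the difference of 0.76 between 6 h and 2 h did not pass the test (DESeq2 adjusted p = 0.0665). The gene was thus at 12.35% of its 0 h mean at 2 h and at 20.8% at 6 h.

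Zkscan16 (ENSMUSG00000038630, chr4:58943628-58958355, plus strand) stayed at the lower level. Its normalized counts were 199 and 181 at 0 h, then 37.95 and 23.8 at 2 h and, at 6 h, 26.8 and 30.1. The 2 h and 6 h values overlapped, with log2 fold changes of −2.62 and −2.74 from 0 h and a difference of −0.12 between them (DESeq2 adjusted p = 0.841). Zkscan8 had 775 and 671 normalized counts at 0 h, 179 and 100.3 after 2 h and 227 and 280 after 6 h, and was lower than at 0 h at both times by 2.37 and 1.51. Zkscan7, with 59.3 and 66.0 normalized counts at 0 h and between 5.99 and 11.8 afterwards, completed the 4 that were lower at 6 h.

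The other course within the subfamily was that of Zkscan1 (ENSMUSG00000029729, chr5:138085084-138107822, plus strand), known as the host of an abundant circular RNA. It had 2694 and 2550.1 normalized counts at 0 h, then 768 and 522 at 2 h and, at 6 h, 2621 and 2465. The 2 h libraries were at 24.6% of the 0 h mean and the 6 h libraries at 97.0%, with log2 changes of −2.02 ± 0.19 (DESeq2 adjusted p = 8.25e-24), −0.04 at 6 h and 1.98 between 2 h and 6 h. Zkscan14 fell by 1.86 and Zkscan6 by 1.05 at 2 h, and at 6 h they were at 62.9% and 89.3% of the 0 h mean. The call of Zkscan6 was lost when 0 h replicate 2 or 2 h replicate 1 was left out.

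Zkscan3, a repressor of autophagy genes and the most abundant Zkscan gene at 0 h with 32.8 TPM, had 1298 and 1155 normalized counts at 0 h, 707 and 623 after 2 h and 1051 and 1024 after 6 h. Its log2 difference of −0.88 ± 0.14 at 2 h (DESeq2 adjusted p = 1.44e-08) was under the fold for a call, as was that of Zkscan2 (−0.98). Both became called under library totals, and Zkscan2 also under the length offset. Zkscan5 went the other way at 2 h, from 596 and 590 normalized counts at 0 h to 778 and 917 at 2 h and 465 and 453 at 6 h, again under 2-fold. Zkscan17 had log2 differences between −0.53 and −0.19.

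Of the 9 Zscan genes above the floor, 3 fell at 2 h, beside 5.94% of all genes. None was called in either direction at 6 h against 0 h by DESeq2, and edgeR likewise called none. With 9.1% and 10.2% of all genes called at 6 h, a count of 0 in 9 genes is near the background. Of the 9, 1 had an unadjusted p under 0.05, namely Zscan21 (log2 0.42, DESeq2 adjusted p = 0.00148). Zscan22 (ENSMUSG00000054715, chr7:12897815-12909083, plus strand) had 363 and 331 normalized counts at 0 h, then 53.9 and 55.8 at 2 h and, at 6 h, 386 and 351. Both 2 h libraries were low, at 15.8% of the 0 h mean, and the 6 h values overlapped those of 0 h. The log2 fold change was −2.66 ± 0.23 at 2 h (DESeq2 adjusted p = 3.67e-29), 0.09 at 6 h (95% interval from −0.28 to 0.46) and 2.75 ± 0.23 from 2 h to 6 h (DESeq2 adjusted p = 6.65e-31).

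Zscan20 and Zscan2 were also lowest at 2 h. Zscan20 had 242 and 254 normalized counts at 0 h, 76.9 and 79.6 after 2 h and 301 and 307 after 6 h. Zscan2 had 205 and 217 at 0 h, then 47.9 and 61.0 at 2 h and, at 6 h, 168 and 193. They fell by 1.66 and 1.95 on the log2 scale at 2 h and were higher at 6 h than at 2 h by 1.96 and 1.73.

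Zscan21, the most abundant Zscan gene at 0 h with 58.9 TPM, had 1656 and 1621 normalized counts at 0 h, 953 and 1051 after 2 h and 2282 and 2113 after 6 h. The 3 time points did not overlap, and the call was made for 6 h against 2 h (log2 1.13 ± 0.12, DESeq2 adjusted p = 7.93e-19). Zscan26 was called in the same comparison at 1.00, on the 2-fold line, and lost that call under several settings. Zscan18 had 1288 and 1165 normalized counts at 0 h, then 1221 and 1359 at 2 h and, at 6 h, 1421 and 1352, with a log2 difference of 0.07 at 2 h and a 95% interval from −0.19 to 0.33, which leaves out a 2-fold change in either direction.

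Among the 4 Zbed genes, Zbed3, Zbed4 and Zbed5 fell at 2 h, and all 4 had risen at 6 h compared with 2 h, beside 5.94% of all genes lower and 10.1% higher in these comparisons. The 2 h calls of Zbed3 and Zbed4 were each lost in 1 of the fits that left out 1 library, and that of Zbed4 also under the GC correction. Zbed4 (ENSMUSG00000034333, chr15:88751660-88784516, plus strand) had 1529 and 1444 normalized counts at 0 h, 733 and 729 after 2 h and 2378 and 2145 after 6 h. The time points did not overlap, with 49.2% of the 0 h mean at 2 h and 152.1% at 6 h. The log2 fold change was −1.02 ± 0.13 at 2 h (DESeq2 adjusted p = 1.16e-14), 0.60 ± 0.12 at 6 h (DESeq2 adjusted p = 3.29e-06) and 1.63 ± 0.13 from 2 h to 6 h (DESeq2 adjusted p = 9.91e-37), the 2 h value lying just past the 2-fold line.

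Zbed3, whose product binds Axin and modulates Wnt signalling, had 295 and 319 normalized counts at 0 h, then 146 and 154 at 2 h and, at 6 h, 333 and 350. Zbed5 had 215 and 234 at 0 h, 54.0 and 61.3 after 2 h and 127 and 142 after 6 h, so that of these genes it alone had both 6 h libraries below both 0 h libraries (log2 −0.74, DESeq2 adjusted p = 0.00615). Zbed6, a repressor of Igf2 in muscle, had 699 and 459 normalized counts at 0 h, then 408 and 252 at 2 h and, at 6 h, 1132 and 1088. It lies within Zc3h11a on the same strand, and its replicates differed by more than those of the other Zbed genes at 0 h and 2 h. Its counts were split in all 6 libraries, as were those of Zbed5 and, among the Zbtb genes, Zbtb9 and Zbtb8os. In all, 14 members had a split count in some library.

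A number of members lie beside each other in the genome. Within a window of 250000 bases, 27 of the 72 fell into 9 clusters, and the members in all were spread over 17 chromosomes. In the chromosome 13 cluster, Zkscan4 and Zkscan8 fell by 3.02 and 2.37 on the log2 scale at 2 h, while Zscan12, Zkscan3 and Zscan26 had −0.79, −0.88 and −0.84, under the fold for a call. On chromosome 5, Zkscan14 fell by 1.86 and the neighbouring Zkscan5 had a difference of 0.52. On chromosome 7, Zscan22 fell by 2.66 between Zscan18 at 0.07 and Zbtb45, which fell by 1.27. Members side by side could thus take opposite signs or differ by over 2 log2 units.

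**Figure D5:**
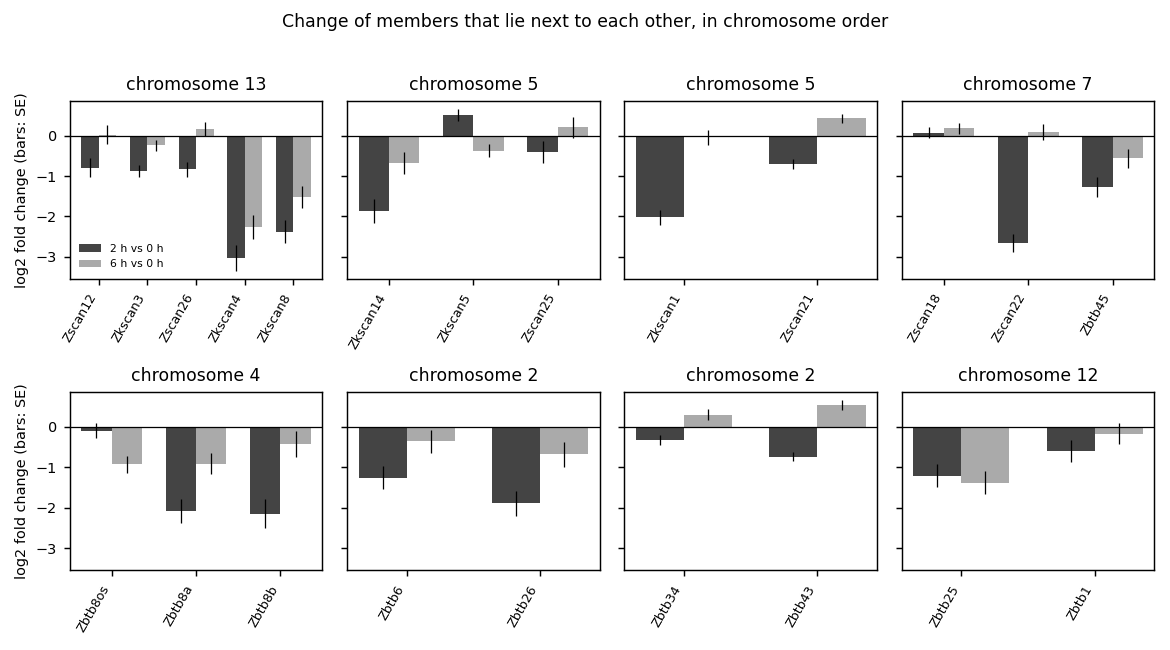
Log2 fold change of neighbouring members (vertical axis, bars with the standard error) at 2 h (dark) and 6 h (light) against 0 h, for 8 clusters with counts, in the order of the genes along the chromosome. In the chromosome 13 cluster Zkscan4 and Zkscan8 reach −3.02 and −2.37 while the other 3 genes stay between −0.88 and −0.79 at 2 h, and on chromosome 5 Zkscan5 lies above 0 next to Zkscan14 below 0.

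Relatives named otherwise were read from the same fit. Of 8 BTB zinc-finger genes under other symbols, Patz1 fell at 2 h (log2 −1.67) and Zfp131 rose (1.14), and Bcl6, a repressor of germinal-centre B cells and neurogenesis, had 0.90, under the fold for a call. At 6 h against 0 h, Zfp131 was called higher (1.43) and none was lower. Of 13 SCAN genes under other symbols that were tested, 6 fell at 2 h and none rose, where 5.94% and 3.62% of all genes did, with a median of −0.96. They were Zfp202 (−2.37), Zfp213 (−2.33), Zfp110 (−1.62), Zfp397 (−1.56), Zfp287 (−1.49) and Zfp263 (−1.20). Pgbd1 (−3.12) and Zfp213 (−2.35) were lower at 6 h against 0 h, where 10.2% of all genes were. Between 2 h and 6 h, 7 of these 13 were called higher and 1, Pgbd1, lower, where 10.1% and 8.02% of all genes were, and of the BTB genes Patz1 was called higher (1.05).

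Of the 15 genes for corepressors and the ligase scaffold that these proteins use, none was called lower at 2 h, where 5.94% of all genes were. Bcor was called higher, with a log2 fold change of 1.19, and the median of the list was 0.10. Tbl1xr1, a subunit of the NCOR complex, had −0.71 (DESeq2 adjusted p = 0.0097), under the fold for a call. At 6 h Bcor (1.64), Nacc2 (1.14) and Cul3 (1.04) were higher than at 0 h and none was lower, where 9.1% and 10.2% of all genes were. Trim28, the partner of KRAB boxes, had log2 differences of 0.48 at 2 h and 0.56 at 6 h, and Setdb1, the histone methyltransferase that TRIM28 recruits, −0.43 (DESeq2 adjusted p = 0.00494) and 0.13.

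Effective length, which RSEM averages over the transcripts of a gene and which moves when the mix of transcripts does, was tested as a readout that the counts do not give. Of the 59 members with enough counts, limma called none in any comparison, where 0.0356% of 11233 genes were called for 2 h against 0 h, 0.525% for 6 h against 0 h and 0.116% for 6 h against 2 h. At an unadjusted p under 0.05, 8, 7 and 9 members passed in the same order (13.6%, 11.9% and 15.3%), where 8.1%, 14.0% and 12.2% of the 11233 genes did. The largest log2 ratios of length were 0.92 for Zbtb8os at 6 h against 0 h (limma adjusted p = 0.297) and −0.83 for Zbtb48 at 6 h against 2 h (limma adjusted p = 0.199). No other tool was run for this readout. The 59 include members with 1 quantified transcript, such as Zbtb3, Zbtb10 and Zbtb41, which have no mix to shift and could not be called.

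The size of the change at 2 h had little relation to features of the genes. Across the 61 members with a mean of at least 50, the log2 fold change at 2 h had a Spearman's rho of 0.10 with GC content, −0.02 with the number of fingers, 0.18 with transcript length and 0.11 with TPM at 0 h. These are correlations across genes measured in the same libraries, and genes are not independent replicates.

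The start sites were searched for 4 short motifs of depolarization-linked or general factors on both strands, in RefSeq windows (GRCm38.p6) from 250 bases before to 50 after the start, which 60 of the 72 members had. The full cAMP response element TGACGTCA, the site bound by CREB, was in 4 of 60 (6.67%), namely Zbtb11, Zbtb21, Zscan18 and Zscan20, and in 2.03% of the windows of 27025 genes and 4.0% of those of 325 Zfp genes. The AP-1 letters TGANTCA were in 8.33% of member windows against 8.97% of all, CCAAT in 41.7% against 41.1%, and the EGR letters GCGTGGGCG in none of 60 against 0.707%. The 5 members with the AP-1 letters were Zbtb46, Zkscan1, Zscan4c, Zscan4d and Zscan4f, of which the Zscan4 copies had no count in any library. The sequences around the response element are shown because their members took different courses at 2 h, with log2 changes of 1.42 for Zbtb11, 0.07 for Zscan18 and −1.66 for Zscan20. Each is printed 5′ to 3′ on the strand of the gene with the 8 matching bases in capitals, which begin 94, 48 and 76 bases before the RefSeq start site in the order below (Zbtb11 at chr16:55973650-55973777, plus strand, Zscan18 at chr7:12803639-12803746, minus strand, and Zscan20 at chr4:128610107-128610234, minus strand).
Zbtb11: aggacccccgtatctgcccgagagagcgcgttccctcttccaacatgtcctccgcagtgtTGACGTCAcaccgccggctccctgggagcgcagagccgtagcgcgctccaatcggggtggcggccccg
Zscan18: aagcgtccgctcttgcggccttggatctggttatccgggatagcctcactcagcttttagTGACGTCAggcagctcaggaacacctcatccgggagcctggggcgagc
Zscan20: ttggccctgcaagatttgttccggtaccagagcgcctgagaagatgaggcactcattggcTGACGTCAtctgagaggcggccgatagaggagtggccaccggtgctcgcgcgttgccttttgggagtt
A match of letters is a description of the window and not a bound site. The fourth, Zbtb21, with the element after its start site, had a log2 difference of 0.41 at 2 h and 0.94 at 6 h, under the fold for a call at both times.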

How the data were processed

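Poly(A) RNA of cultured cortical neurons was sequenced in 6 libraries, 2 for each of 3 times in KCl. According to the submitters' processing notes, the authors aligned the reads with Bowtie2 2.2.9 to mm10 and quantified genes with RSEM 1.3.0. The deposited tables give per gene and library expected counts, TPM, FPKM and effective length. TPM, as deposited by the authors, was used for levels between genes; the deposited FPKM values were not used. Whether RSEM was run with a strand setting is not given in the sources used here. Gene identifiers were matched to GENCODE M21 (42548 of 43432).

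Expected counts were rounded, and 22515 genes with a count were fitted in DESeq2 1.42.0 (R 4.3.3) over all 6 libraries with group as the term; the tool and both thresholds are those of the study's methods, which do not state the design. Wald p-values were adjusted by Benjamini-Hochberg over the genes kept by DESeq2's independent filtering, which sets aside genes with low counts. These were 16840 genes for 2 h against 0 h, 17277 for 6 h against 0 h and 16404 for 6 h against 2 h. Without that filter the 6 h call of Zbtb41 was lost. Calls needed an adjusted p up to 0.05 with an absolute log2 fold change over 1. Normalized counts are counts divided by DESeq2's size factors. Log2 effective length was tested with limma 3.58.1 in 11233 genes averaging 100 counts or more, at an absolute log2 ratio of at least 0.2. Fingers were counted as C-x(2,4)-C-x(12)-H-x(3,5)-H. A member was at the floor with at most 3 counts in every library, and a count was taken as split where it was over 0.005 from a whole number. The fits were tested on simulated data.

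The members and lists were chosen with earlier results of these data known. Members named with values were those called whose normalized counts averaged 50 or more (up to 10 per subfamily and comparison), the 3 most abundant of each subfamily and a list with known roles; others that complete a small count or show a contrast (Zbtb2, Zbtb6, Zbtb21, Zbtb32, Zbtb42, Zbtb48, Zkscan2, Zkscan5, Zkscan7, Zkscan17, Zscan12) were chosen after their values were seen. Alternatives were edgeR 4.0.16, TMM factors, library totals, other filters and fold rules, GC correction, a length offset, the replicate block, fits of 2 groups and leaving out each library. One gene of the corepressor list is not reported here by name or value.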

Additional observations from a re-analysis of the deposited data

How the results depend on the processing

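For the 45 members named by the rule, 2273 of 2430 alternative values kept their side of the threshold, 97 were no longer called and 60 became called. No called value changed sign, and 36 of the 2273 had the opposite sign with no call in either fit. Calls at 2 h against 0 h were 1 higher and 25 lower. These counts became 0 and 11 when the Wald test was made against a 2-fold change, and 6 and 38 with no fold filter. Library totals kept all 26 calls and added Zkscan2, Zkscan3 and Zscan26 as lower. At 6 h against 0 h, 3 higher and 10 lower became 1 and 3 with the test against a 2-fold change, 13 and 18 with no fold filter, and 1 and 13 with library totals, where Zbtb17 and Zbtb41 were no longer called and Zbtb8a, Zbtb8os and Zkscan2 became called. At 6 h against 2 h, 24 higher and 1 lower became 5 and 0 with the test against a 2-fold change and 38 and 9 with no fold filter. The count lower was 2 under library totals, under the GC correction, under the GC correction with the replicate block and under the length offset. The cause of these shifts was not tested. Under library totals the median log2 fold change of all genes averaging 10 counts or more was −0.156, −0.251 and −0.075 at 2 h, 6 h and 6 h against 2 h, where it was 0.011, −0.004 and 0.005 with DESeq2's size factors, and the members' medians were −0.92, −0.29 and 0.64.

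Leaving out each library in turn gave 1 to 2 members higher and 23 to 30 lower at 2 h, 2 to 3 higher and 8 to 10 lower at 6 h, and 22 to 28 higher and 0 to 2 lower at 6 h against 2 h. At 2 h, 30 members were lower without 2 h replicate 1 and 23 without 2 h replicate 2. Zbed3, Zbed4, Zbtb6, Zbtb25 and Zkscan6 each lost the 2 h call in at least 1 of these fits, and Zbed4 lost it under the GC correction. Zbtb41 lost its 6 h call without either 0 h library and without either 6 h library, Zbtb4 without 0 h replicate 2 or 6 h replicate 1, and Zbtb7c without 0 h replicate 2 or 6 h replicate 2. Without 6 h replicate 1, Zbtb3 and Zbtb41 lost their calls at 6 h against 2 h, as did Zbtb41 without 6 h replicate 2. Without 6 h replicate 1 or 2 h replicate 2, Zbtb12 was no longer lower at 6 h than at 2 h, and without 2 h replicate 2 Zbtb26, Zbtb33, Zbtb44 and Zscan26 lost their calls there. In fits with 1 library in a group, that library is assumed to vary like the others.

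Whether libraries with the same replicate number share a culture is not stated, and correlations between them cannot settle it. Deviations of libraries with the same number correlated at 0.281 between 0 h and 2 h, −0.002 between 0 h and 6 h and 0.153 between 2 h and 6 h over 12291 genes. After the GC correction these values were 0.114, −0.057 and 0.048 in the same order. With the replicate block, the counts stayed at 1 and 25, 3 and 10, and 24 and 1, and effective length at 0. Changes of the 7 members at the floor could not be assessed, since 0 to 2 counts were seen for them. With 2 libraries per group, members near 2-fold cannot be placed on either side of it.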
